A study of Homo sapiens with 8 samples.

Results

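The clustered protocadherin genes are the protein-coding genes of chromosome 5 whose symbols start with PCDHA, PCDHB or PCDHG, followed by a number or by a letter and a number. This rule found 53 of the 20136 protein-coding genes of chromosomes 1 to 22, X and Y. They comprised 13 alpha variable genes (PCDHA1 to PCDHA13), 16 beta genes (PCDHB1 to PCDHB16), 12 gamma A genes (PCDHGA1 to PCDHGA12), 7 gamma B genes (PCDHGB1 to PCDHGB7) and the 5 C-type genes PCDHAC1, PCDHAC2, PCDHGC3, PCDHGC4 and PCDHGC5. All are read from the plus strand, and together they span chr5:140165721-140892544 (hg19), a stretch of 726824 bp.

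Protocadherins are cell-surface adhesion proteins of the cadherin superfamily. In the alpha and gamma clusters, each variable exon has its own promoter and is spliced to constant exons shared by the whole cluster, whereas each beta gene is a single-exon unit. Neurons choose a few of these promoters, a choice known to depend on DNA methylation, CTCF and cohesin, and the resulting mix of proteins on the cell surface lets a neuron tell its own branches from those of other cells.

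DNA G-quadruplexes (G4s) are structures of stacked guanine tetrads that form in G-rich single strands. G4 ChIP-seq was used to map them: fragments of fixed chromatin were captured with the G4-specific antibody BG4 and sequenced. The cells were untreated K562, a chronic myelogenous leukemia line, and untreated HepG2, a hepatocellular carcinoma line. Neither is a neuronal cell. The labels give 3 G4 ChIP libraries and 1 input library for each line, 8 in all. The deposited data are 4 lists of genomic intervals: a high-confidence list for each line (a peak in at least 5 of 8 replicates for K562 and in at least 6 of 9 for HepG2) and a lower-confidence list for each (a peak in at least 2 replicates). They hold 9205, 8805, 19249 and 28387 intervals, respectively for K562 high-confidence, HepG2 high-confidence, K562 lower-confidence and HepG2 lower-confidence, and the values below follow this order. An interval carries no height, read count or replicate value, the depth of the libraries is unknown, and no test over samples was possible.

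The sequences that could fold into a G4 nearest to the starts of these genes are shown first, because the counts below refer to them. On either strand, a G4 motif means here 4 stretches of 3 or more G that are separated by 1 to 7 other bases, the loops. Sequences are written 5′ to 3′ on the strand that carries the G runs, with the runs in capitals, and were taken from GRCh37, the same build as hg19.
PCDHAC2, plus strand, 219 bp downstream of the gene's 5′ end in its UTR, chr5:140346274-140346301: GGGGcccGGGcgtGGGGcacggctGGGG
PCDHGC5, plus strand, upstream of the 5′ end, chr5:140868215-140868239: GGGGGaGGGtGGGGGaatacatGGG
PCDHGC5, minus strand, ending 4 bp before the 5′ end, chr5:140868623-140868644: GGGGGtGGGcaGGGGGGaGGGG
PCDHGC3, plus strand, near a downstream transcript start, chr5:140887853-140887881: GGGccttGGGGGGagtGGGGtgtagaGGG
PCDHGC3, minus strand, same transcript start, chr5:140888392-140888418: GGGaatggaaGGGGtaGGGGaGGGGGG
PCDHGC3, plus strand, same transcript start, chr5:140888534-140888559: GGGctGGGGGtGGGGGccagctGGGG
PCDHGC3, minus strand, same transcript start, chr5:140888587-140888611: GGGGGagaGGGGttgagtGGGaGGG

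None of the 53 genes had a G4 ChIP-seq interval within 1 kb of an annotated transcription start site (TSS), in either cell line and in either the high-confidence or the lower-confidence list. The counts were 0 of 53 in K562 and 0 of 53 in HepG2, and the 95% Wilson interval of each share reached up to 6.76%, which covers the counting of genes only. Over all protein-coding genes, an interval lay within 1 kb of a TSS in 7190 genes (35.7%) in the K562 high-confidence list, 6196 (30.8%) in the HepG2 high-confidence list, 10100 (50.2%) in the K562 lower-confidence list and 10327 (51.3%) in the HepG2 lower-confidence list. Of the 883 protein-coding genes of chromosome 5, the shares were 32.8%, 27.0%, 47.6% and 47.1%. An interval missing from a list means that no peak was called there in enough replicates. It does not show that no G4 formed, and at an unknown depth a weaker signal may have been missed.

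**Figure D1:**
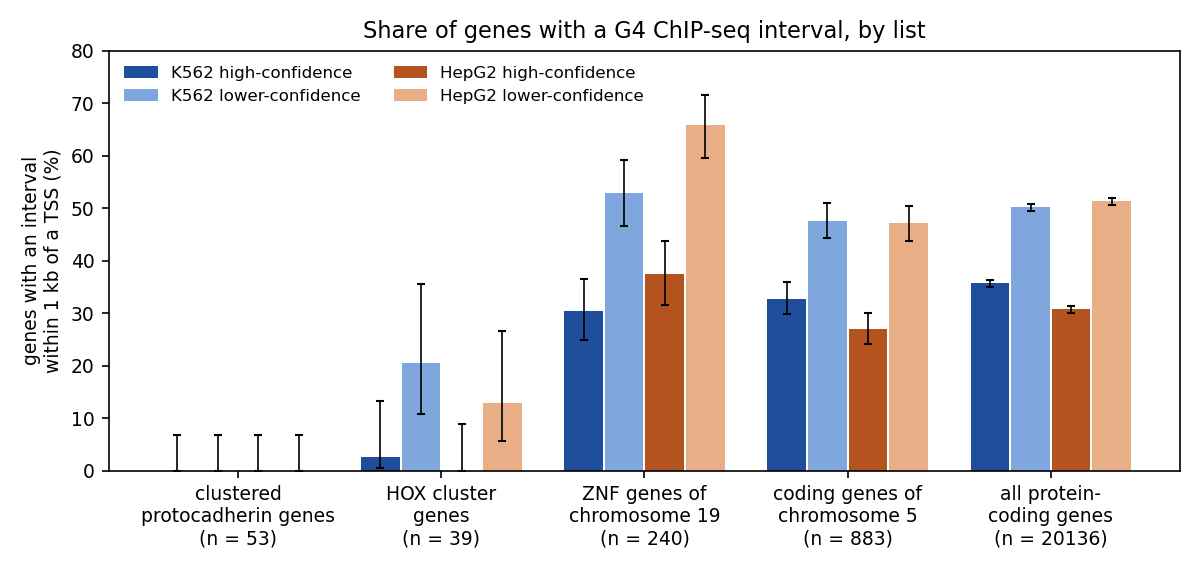
Share of genes with an interval within 1 kb of a TSS (y axis, percent) for 5 gene sets (x axis) in the 4 lists (colours). Error bars are 95% Wilson intervals over genes. The clustered protocadherin genes stand at 0 in all 4 lists, whereas 30.8% to 51.3% of all protein-coding genes had an interval.

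The absence extended over the whole cluster. No interval of any of the 4 lists touched a base of the 726824 bp, which held no unknown base in the reference. The chromosome 5 average was 1.92, 1.59, 4.16 and 4.97 intervals per Mb in the 4 lists, and the genome average was 3.22, 3.07, 6.73 and 9.92. The span holds the starts of 92 annotated genes, of which 57 are protein-coding, 25 are long noncoding RNA genes and 9 are pseudogenes. The 4 protein-coding genes among them that are not protocadherins were TAF7, a subunit of the general transcription factor TFIID, SLC25A2, a mitochondrial carrier, and the little-described genes AC005609.1 and ENSG00000279983. They had no interval within 1 kb of a TSS either. Both cell lines stood at 0 throughout, so no difference between K562 and HepG2 could be described inside the cluster.

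The genes on both sides carried intervals. Of the 18 protein-coding genes that start in the 500 kb before the cluster, 8, 8, 13 and 13 had an interval in the 4 lists and 16 had one in at least 1 list. Of the 9 genes in the 500 kb after it, 7, 6, 9 and 7 had an interval and all 9 had one in at least 1 list. Over all protein-coding genes, the shares were 35.7%, 30.8%, 50.2% and 51.3%, and 58.9% were in at least 1 list. These flanks held 8, 8, 13 and 17 intervals before the cluster and 6, 4, 21 and 9 after it.

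The nearest high-confidence intervals lay at the starts of other genes. In K562, the nearest before the cluster was chr5:140044234-140044518 at WDR55, 121203 bp away, and the nearest after it was chr5:140998519-140998851 at DIAPH1, 105975 bp away. DIAPH1 encodes a formin that nucleates actin filaments. HepG2 had an overlapping high-confidence interval at the same start, chr5:140998589-140998787. Both DIAPH1 intervals contained the same pair of motifs, shown for comparison with the protocadherin sequences above.
DIAPH1, plus strand, chr5:140998691-140998714: GGGGGaaGGGagaGGGGcggaGGG
DIAPH1, minus strand, chr5:140998644-140998669: GGGcggaagtGGGGcaggcGGGcGGG

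Before the cluster, the lines differed in which interval came nearest. In HepG2 the high-confidence list had an interval of 24 bp at chr5:140090737-140090760, which ends 100 bp before the start of the vault RNA gene VTRNA1-1, and the next was at the shared start of the histidyl-tRNA synthetase genes HARS1 and HARS2. K562 had an interval 77 bp before VTRNA1-1 and an interval at HARS1, but only in its lower-confidence list. Conversely, the WDR55 interval was high-confidence in K562 and lower-confidence in HepG2. The HepG2 lower-confidence list also reached VTRNA1-2, with an interval over the gene, and VTRNA1-3, with an interval ending 25 bp before it. Vault RNAs are short noncoding RNAs made by RNA polymerase III. After VTRNA1-3, whose start lies 59978 bp before PCDHA1, the lists are empty up to a HepG2 lower-confidence interval in a DIAPH1 intron, chr5:140904384-140904555, which lies 11840 bp beyond the last protocadherin base. The centre of this interval lies 132 bp upstream of an annotated DIAPH1 TSS inside the gene. The lines were called at different thresholds, so cell line and list making cannot be told apart.

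**Figure D2:**
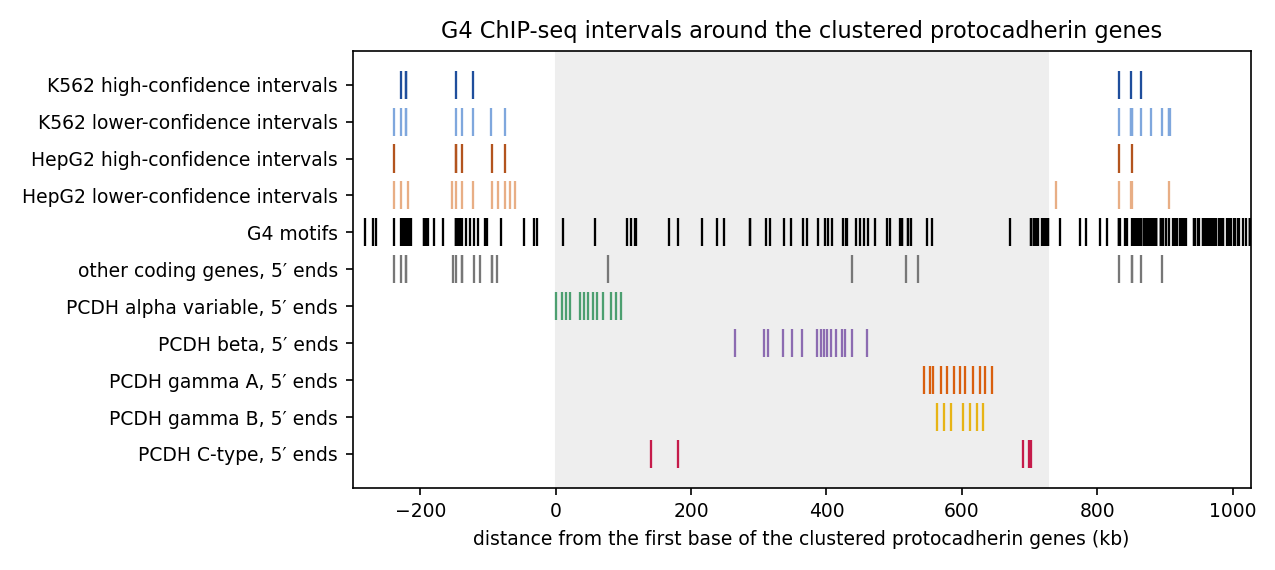
Map of the cluster with 300 kb on each side. The x axis gives the distance from the first base of the clustered protocadherin genes in kb, and the shaded area is the cluster. Rows show the intervals of the 4 lists, the G4 motifs and the 5′ ends of protein-coding genes by group. Interval rows are empty over the shaded area, whereas the motif row is not.

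Distances set the scale of this absence. The 5′ end of the member closest to any interval was that of PCDHGC5, 35.7 kb from the nearest HepG2 lower-confidence interval. The members' median distance was 245.1 kb, 236.3 kb, 236.2 kb and 154.6 kb in the 4 lists, against 35.25 kb, 44.50 kb, 5.63 kb and 3.81 kb over all protein-coding genes. The farthest were beta genes in the middle of the cluster: PCDHB5 lay 470.3 kb from a K562 high-confidence interval and PCDHB4 lay 395.7 kb from a HepG2 lower-confidence interval.

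The union of the 4 lists left 36883 gaps between successive intervals, with a median length of 8245 bp. The gap that holds the cluster, chr5:140105719-140904383, was 798665 bp long and ranked only 673 by length. It contained the 5′ ends of 57 protein-coding genes, second to a gap on chromosome 11 with 58 genes, most of them olfactory receptor genes, spread over 6747214 bp, of which 50.5% are unknown bases. Among the 673 gaps of at least its length, it had the highest density of protein-coding genes, 71.4 per Mb, and the median of those gaps was 2 genes. Many shorter gaps were denser, such as a gap of 462 bp on chromosome 1 with 1 gene. A gene-rich example was a gap of 368885 bp on chromosome 17, with 36 genes at 97.6 per Mb, 34 of them KRTAP genes. Other gene-rich gaps also held gene families, such as 33 KRTAP genes of 38 on chromosome 21 and 19 LCE genes of 38 on chromosome 1. A gap with many genes of 1 family is thus not particular to the protocadherins. The gene count rests on the annotation, which lists each variable exon of the alpha and gamma clusters as a gene.

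**Figure D3:**
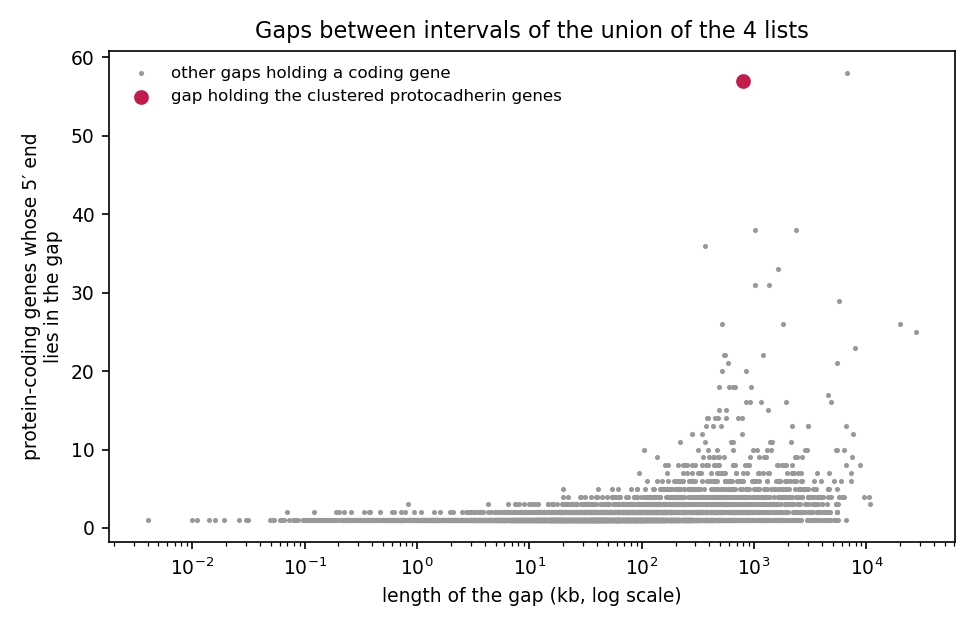
Gaps between successive intervals of the union of the 4 lists, for gaps holding at least 1 protein-coding gene. The x axis is the length of the gap in kb (log scale) and the y axis the number of protein-coding 5′ ends in it. The gap with the clustered protocadherin genes (large point) holds 57 genes in 798665 bp, while the only gap with more genes, 58, is 6747214 bp long.

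The cluster was not free of sequences that match the motif. It held 60 G4 motifs, or 82.6 per Mb, against 100.8 per Mb on chromosome 5 and 133.4 per Mb over all chromosomes. The alpha cluster had 9 (39.8 per Mb), the beta cluster 19 (96.0 per Mb) and the gamma cluster 21 (115.1 per Mb). The G runs were on the plus strand in 24 motifs and on the minus strand in 36. By annotation, 30 lay in introns, 14 in coding exons, 7 in UTRs, 6 between genes and 3 in noncoding exons. None of the 60 lay in an interval. Motifs were rarely in intervals anywhere: over all chromosomes, 1.42%, 0.814%, 2.65% and 2.26% were. For motifs within 1 kb of a protein-coding TSS the shares were 6.79%, 3.82%, 11.9% and 9.48%, and the cluster had only 9 such motifs near its members' TSSs.

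Near the starts, motifs were few. Only 5 of the 53 genes (9.43%) had a motif within 1 kb of a TSS, against 15407 of all protein-coding genes (76.5%). PCDHGC3 had the most, with 4, all near a transcript start within the constant part of the gamma cluster. The nearest of these 4 motifs lay 32339 bp from the 5′ end of PCDHGC3, and all 4 lay in introns annotated to 22 genes. PCDHGC5 had 2, and PCDHAC2, PCDHB2 and PCDHB3 had 1 each. The 4 motifs of PCDHGC3, the 2 of PCDHGC5 and the motif of PCDHAC2 are the sequences printed above, and 3 of the 5 C-type genes thus accounted for 7 of the 9 motifs. No alpha variable, gamma A or gamma B gene had a motif there. Among all genes with a motif, 41.5%, 34.7%, 57.2% and 57.5% had an interval within 1 kb of a TSS in the 4 lists. Among the 4681 genes outside the cluster without a motif, the shares were still 17.1%, 18.0%, 27.6% and 31.3%. The 48 protocadherin genes without a motif had none.

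The beta genes shared a motif inside their coding sequence. In 11 of the 16 beta genes, the minus strand of the coding exon held a motif 1649 to 1688 bp downstream of the gene's 5′ end. It was 31 bases wide in 9 genes and 30 bases wide in 2, and 3 genes had the commonest 31-base form. The 30-base form was identical in PCDHB7 and PCDHB12 and is printed to show what these paralogs have in common.
PCDHB7, minus strand, coding exon, chr5:140553894-140553923: GGGaggcgaGGGGcaggtgcGGGtcctGGG
PCDHB12, minus strand, coding exon, chr5:140589957-140589986: GGGaggcgaGGGGcaggtgcGGGtcctGGG

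Noncoding exons of 3 further positions in the beta cluster, annotated to the pseudogenes PCDHB17P, PCDHB18P and PCDHB19P, had a motif of similar width on the minus strand. Of the 5 beta genes without the motif, PCDHB8 and PCDHB11 differed from the commonest form at 1 base and PCDHB5 at 3, and each kept 3 G runs. PCDHB14 differed at 2 bases and kept 2 runs. In PCDHB1 no close counterpart was found, the best match differing at 15 of 31 bases. The motifs of PCDHB2 and PCDHB3 counted near a TSS above are copies of this motif and lie near downstream transcript starts. These copies sit in sequence that the paralogs share. Within 150 bp of the 11 motifs, a median of 34.2% of 31-base words occurred once in the genome (range 2.7% to 50.3%). Reads from such sequence can be placed ambiguously, the study's methods name a filter on mapping quality, and the effect of this on the lists at these copies was not tested.

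Sequence uniqueness was high at the other motifs near starts. Around the motif of PCDHAC2, both motifs of PCDHGC5 and all 4 motifs of PCDHGC3, 100.0% of 31-base words occurred once in the genome. Over the members' windows of 1 kb on each side of the gene's 5′ end, the median was 97.1%, from 56.0% at PCDHB8 to 100.0%, against a median of 99.2% for the other protein-coding genes of chromosome 5. The lowest windows were those of PCDHB8, PCDHB13 (56.4%) and PCDHA7 (64.1%). The part of read placement in the empty lists was not tested.

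The base composition around the 5′ ends set these genes apart from most others in GC content but not in the CpG ratio, the observed over the expected number of CpG dinucleotides. The members' median GC content within 1 kb of the 5′ end was 43.0% (range 31.2% to 57.2%), against 55.0% for all protein-coding genes (quartiles 48.9% and 60.6%) and 58.0% for genes with a K562 high-confidence interval. Their median CpG ratio was 0.59 (range 0.22 to 0.82), close to 0.61 for all protein-coding genes (quartiles 0.33 and 0.74), against 0.70 for genes with a K562 high-confidence interval.

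The groups of protocadherins differed among themselves. Alpha variable genes had a median GC content of 40.9% and a median CpG ratio of 0.69. Beta genes had a similar GC content, 41.7%, but a lower CpG ratio, 0.44. Gamma A genes stood at 43.9% and 0.63, and gamma B genes at 43.4% and 0.55. The C-type genes, which neurons are known to express more uniformly than the other variable exons, were the most GC-rich, with medians of 52.7% and 0.66. PCDHAC2 reached 57.2% and PCDHAC1 56.6%. PCDHGC5, which carries 2 of the motifs at its start, had the lowest CpG ratio of all members, 0.22.

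**Figure D4:**
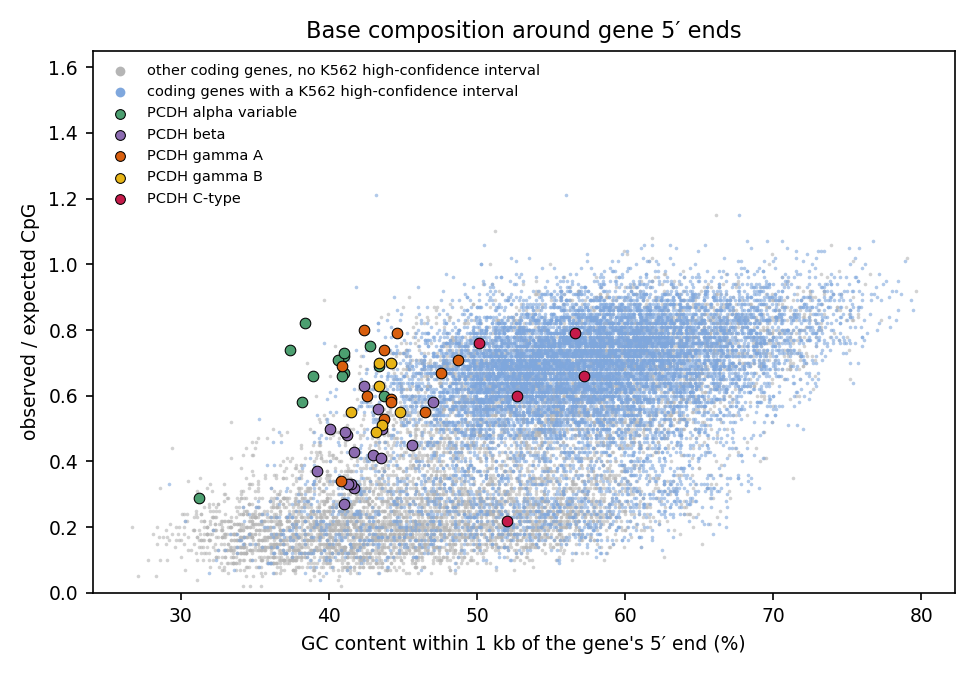
GC content (x axis, percent) and observed over expected CpG (y axis) within 1 kb of the 5′ end of each protein-coding gene. Small points are other genes with or without a K562 high-confidence interval and large points are the protocadherin genes by group. Most protocadherin genes lie left of the genes with an interval, at a median GC content of 43.0% against 58.0%, with CpG ratios that overlap theirs.

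Genes of similar composition elsewhere had intervals. The shares of such genes were below those of all protein-coding genes at the GC content of most members. They were above them at the GC content of the C-type genes. A GC content of 40% to 45% was found for 37 members and 1586 other genes, of which 10.0%, 10.3%, 18.2% and 21.7% had an interval in the 4 lists. When a CpG ratio of 0.4 to 0.8 was required as well, 31 members and 328 other genes remained, and the shares among the other genes were 15.5%, 18.3%, 33.5% and 43.0%. All 5 C-type genes fell between 50% and 60% GC, where 40.7%, 37.6%, 57.5% and 59.6% of the 8825 other genes had an interval. No member had an interval in any of these classes.

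The count of G runs gave a similar picture. Runs of at least 3 G on either strand numbered a median of 37 within 1 kb of a member's 5′ end (range 20 to 78), against 80 for all protein-coding genes and 89 for genes with a K562 high-confidence interval. The median was 25 for the alpha variable genes, 37.5 for the beta genes, 40 for gamma A, 41 for gamma B and 67 for the C-type genes. Of the members, 47 had 20 to 50 runs. Among the 3311 other genes in that range, 10.8%, 10.2%, 18.2% and 20.4% had an interval, again at any TSS of the gene.

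GC-rich stretches as short as an interval were present at many members. The most GC-rich 200 bp within 1 kb of the 5′ end had a median GC content of 67.5% at the alpha variable genes, 65.5% at gamma A, 65.0% at gamma B and 65.5% at the C-type genes, but 56.5% at the beta genes. PCDHAC2 (77.5%) and PCDHAC1 (75.0%) exceeded the median of all protein-coding genes, 73.5%. For comparison, intervals of at least 50 bp had a median GC content of 70.3% in the K562 high-confidence list, with a lower quartile of 65.2%, and of 65.2% in the HepG2 high-confidence list, with a lower quartile of 59.2%. A 200 bp stretch at or above the K562 lower quartile was found at 22 of the 53 members (41.5%), among them 11 of the 13 alpha variable genes and none of the beta genes, against 74.2% of all protein-coding genes. At or above the HepG2 lower quartile, the count was 39 of 53 (73.6%), against 84.4%. PCDHA11 was the lowest member, at 46.0%. Its record has 3 annotated TSSs, and the stretch was searched only around the 5′ end of the record, as for every gene.

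**Figure D5:**
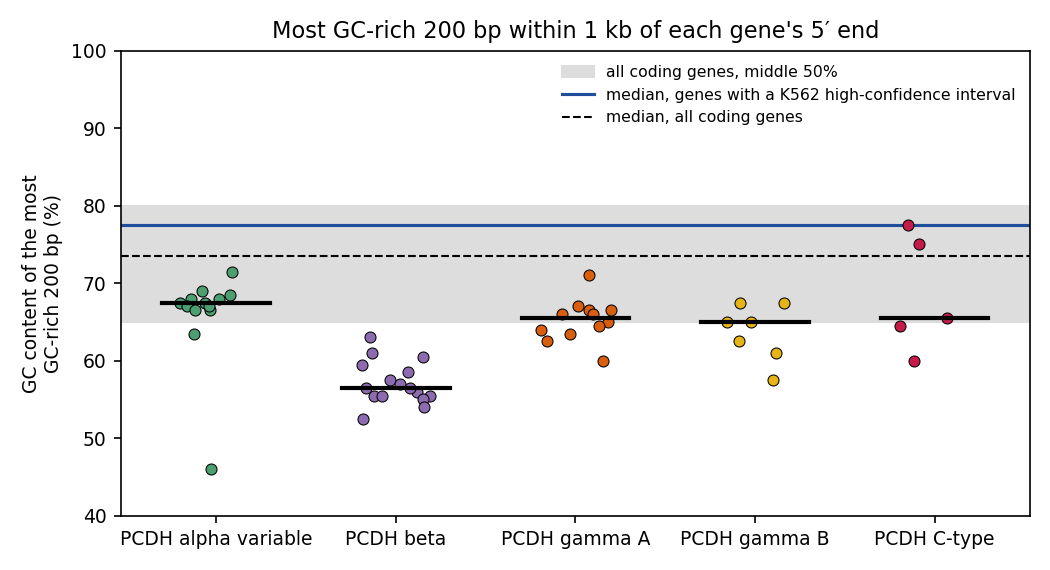
GC content of the most GC-rich 200 bp within 1 kb of each protocadherin gene's 5′ end (y axis, percent) by group (x axis). Points are genes and bars are medians, the grey band covers the middle 50% of all protein-coding genes, and lines mark the medians of all protein-coding genes and of genes with a K562 high-confidence interval. The 16 beta genes lie below the band, and PCDHAC1 and PCDHAC2 lie highest.

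Short promoter motifs were searched on both strands from 250 bp upstream to 50 bp downstream of the 5′ end. The GC box GGGCGG, the core of SP1 family sites, was found in 2 members (3.77%), PCDHAC1 and PCDHGA8, against 52.2% of all protein-coding genes. AGGNGGC, letters from the core of the CTCF motif, was found in 7 members (13.2%), against 39.3%. These letters are only part of that motif, so their absence does not show that a CTCF site is missing, and binding was not measured. The shares were not matched for GC content, whose median was 43.0% for the members and 55.0% for all protein-coding genes. CGCT, the core of the conserved element that most protocadherin promoters carry, was found in 51 members (96.2%), against 76.9%. When the same window was taken at every TSS of a gene, GGGCGG was found in 4 members (7.55%) against 71.9% of all genes, AGGNGGC in 13 (24.5%) against 67.9%, and CGCT in 52 (98.1%) against 89.3%, with PCDHGC5 the member without it.

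Other gene families arranged in clusters were counted by the same rule. Over all protein-coding genes, the shares with an interval were 35.7%, 30.8%, 50.2% and 51.3% in the 4 lists. Of the 39 HOX genes, which encode the homeodomain proteins of body patterning, 1 (2.56%), 0, 8 (20.5%) and 5 (12.8%) had an interval. All 39 had a G4 motif within 1 kb of a TSS, and their median GC content was 58.6%. Of the 240 ZNF genes of chromosome 19, which encode zinc finger proteins, 73 (30.4%), 90 (37.5%), 127 (52.9%) and 158 (65.8%) had an interval. The Wilson interval of the HOX share was 5.6% to 26.7% (HepG2 lower-confidence) and 10.8% to 35.5% (K562 lower-confidence). Such an interval counts each gene as independent of the others. The protocadherin genes all lie in the same gap of the lists, and the HOX genes are clustered too. The Wilson intervals therefore cannot decide whether the families differ, and no test between families was made.

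Of 22 protocadherins and large cadherins outside the cluster, 4, 3, 5 and 7 had an interval within 1 kb of a TSS in the 4 lists. These shares of 18.2%, 13.6%, 22.7% and 31.8% were below the 35.7%, 30.8%, 50.2% and 51.3% of all protein-coding genes. In no list were 15 of the 22, against 41.1% of all protein-coding genes. PCDH12, which starts 456762 bp beyond the cluster, and CELSR3, a cadherin of planar cell polarity, had an interval in all 4 lists. FAT4 and CELSR1 had intervals in HepG2 only. PCDH1, PCDH9 and CELSR2 had intervals in both lines, but not in all 4 lists. The nearest of these to the cluster, PCDH1, starts 366267 bp beyond it and had an interval in both lower-confidence lists.

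Genes for factors known to act on protocadherin promoters were counted at their own annotated TSSs, which can lie far from the 5′ end of the gene record. At DNMT1, the nearest high-confidence interval lay 20552 bp (K562) and 20532 bp (HepG2) from that end, and the nearest K562 lower-confidence interval 65 bp. At TET3, the nearest K562 interval lay 17670 bp away in the high-confidence list and 462 bp in the lower-confidence list. Of 18 such genes, 12, 9, 16 and 16 had an interval within 1 kb of a TSS, against 35.7%, 30.8%, 50.2% and 51.3% of all protein-coding genes. All 18 were in at least 1 list, as were 58.9% of all protein-coding genes. Those in all 4 lists, where 24.3% of all protein-coding genes are, were CTCF, STAG1 of cohesin, the cohesin release factor WAPL, LRIF1, a partner of the silencing protein SMCHD1, the DNA methyltransferase DNMT1, the histone methyltransferase SETDB1 and the zinc finger factor ZNF143. The cohesin genes RAD21 and SMC3 had intervals in HepG2 only, and STAG2 of cohesin and the 5-methylcytosine oxidase TET3 in K562 only. Of all protein-coding genes, 8.76% had intervals in HepG2 only and 7.63% in K562 only. The shares were not matched for GC content, which ranged from 47.4% at SETDB1 to 73.9% at TET3 among the 18 genes. The median of all protein-coding genes was 55.0%. The lists do not measure expression of these genes.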

How the data were processed

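Chromatin of K562 and HepG2 cells was treated with RNase A and immunoprecipitated with the antibody BG4 in 3 independent experiments for each line with technical replicates. The paper also considered earlier G4 ChIP-seq data of K562 cells. It does not state whether the K562 lists include them. The authors used cutadapt 1.16 for trimming and BWA 0.7.15 for alignment to hg19, named a filter on mapping quality under 10, removed duplicates with Picard 2.14.0 and samtools 1.6, called peaks for each replicate with MACS2 2.1.1 (q-value under 0.05) and merged the 8 replicates of K562 and the 9 of HepG2 with bedtools. Each deposited row gives the start and end of an interval in bp and no other measurement, so depth is unknown and replicates could not be compared.

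Intervals sharing at least 1 bp with the window of 1000 bp on each side of any TSS of GENCODE release 44, lifted to GRCh37 (the paper used an earlier release), were counted. Genes of chromosome Y with a copy on X were counted once. Sequence was read from GRCh37, and uniqueness is the share of 31-base words found once in chromosomes 1 to 22, X and Y. GC content, CpG ratio and G runs refer to the 5′ end of the gene record. Scripts used Python 3.11.15 and numpy 2.4.6. Overlap, distance and motif searches gave the direct search's answer on simulated data in 100% of cases. No test over samples was possible. Counts have 95% Wilson intervals and were set beside those of all protein-coding genes. Named genes are members by their intervals or motifs, other genes inside the cluster, the nearest genes with high-confidence intervals, and members of 2 fixed lists. Genes and sequence features named beyond that rule were chosen after their values were seen, as were the joint composition classes and the shared beta motif. The members and lists were chosen with earlier results of these data known. Alternatives were other windows, TSS sets, widths, merging, spans and motif definitions.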

Additional observations from a re-analysis of the deposited data

How the results depend on the processing

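The count of members with an interval was 0 under all 36 alternatives: TSS sets, windows from 500 bp to 5 kb on each side or 1 kb upstream only, the centre of the interval inside the window, and intervals of at least 50 bp or 100 bp, each in all 4 lists. No interval lay in the cluster or within 11840 bp of it, so these alternatives could only give 0. They restate the main count and add no support to it. The count of intervals over the cluster was 0 under 15 of 16 alternatives. In the HepG2 lower-confidence list it became 1 when 50 kb were added on each side, the interval in the DIAPH1 intron. Width filters and merging could not raise the count over the cluster from 0. The number of members with a G4 motif within 1 kb of a TSS, 5 as reported, depended on the definition: it was 19 with loops of up to 12 bases, 53 with runs of at least 2 G, 3 within 500 bp, 3 within 1 kb upstream only, and 2 at the 5′ end of the gene record only. Over all protein-coding genes, the shares were 86.9%, 99.6%, 70.4%, 63.7% and 65.4%, so the members stayed below the others under each of these except for runs of at least 2 G. The cause was not tested. No paired analysis was possible because the deposited lists merge the replicates. Leaving out a replicate was not possible for the same reason. The unknown depth of the libraries limits every count of 0 here.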
